A study of Mus musculus with 4 samples.

Results

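The comparison set the array of ALDH-high cells taken at zeitgeber time 12 (ZT12) against the array of ALDH-high cells taken at zeitgeber time 0 (ZT0), which are 2 of the 4 arrays of the study. Both arms came from 4T1 tumours, 4T1 being a mouse mammary carcinoma line, implanted in mice of the BALB/C strain that received no treatment. Tumour cells had been sorted with the ALDEFLUOR reagent, which turns fluorescent where aldehyde dehydrogenase (ALDH) is active, into an ALDH-high and an ALDH-low fraction. Each fraction at each time was hybridised to 1 single-colour Agilent array. With 1 array on each side, precision is limited by that number, and no difference below could be tested. The sources used here do not say how many mice gave each fraction, whether tumours were pooled, or how the light cycle was set. By the usual convention, ZT0 is lights on and ZT12 lights off.

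Cells keep time with a feedback loop. The factors BMAL1 (gene Arntl) and CLOCK switch on the Per and Cry genes through E-box elements, and the PER and CRY proteins then repress their own activators; REV-ERB and ROR receptors tune Arntl, and PAR bZIP factors such as DBP pass the rhythm on. In mice, glucocorticoids and the traffic of neutrophils and lymphocytes between blood and tissue also follow the day. High ALDH activity is used in breast tumours as a mark of cells with stem-like properties, and 4T1 tumours are known for the large numbers of neutrophil-like myeloid cells they draw in.

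Levels are given as the log2 processed signal of the scanner software minus the 75th percentile of the array, so a level of 0 is that percentile and a difference of 1 is 2-fold. Of 37074 gene names on the array, 20345 had a probe well above background on both ALDH-high arrays and were given a difference, ZT12 minus ZT0. A further 1267 names were above background on the ZT12 array alone, 2329 on the ZT0 array alone and 13133 on neither. The median difference over all genes was 0.35 (quartiles -0.73 and 1.24). At least 2-fold higher at ZT12 were 6476 genes, 31.8% of those measured, and 4094 genes, 20.1%, were at least 2-fold lower. These shares are the background for every list below. They make no allowance for level, although the median difference was higher in dim than in bright genes, as given below. No list is set against genes of its own level.

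Several features of the 2 ALDH-high arrays differed along with the time. The ZT12 ALDH-high array lay on slide 2 at position 1_1 and the ZT0 ALDH-high array on slide 1 at position 1_2, so time, slide and position cannot be told apart. The ZT12 array was the dimmer, with a 75th percentile of 156 against 301 on the ZT0 array, 55.8% against 60.4% of spots well above background, and a spike-in slope of 0.79 against 0.96; the scanner software marked it for evaluation. In ALDH-low the dimmer array was instead the ZT0 one, at position 1_1 and also marked for evaluation. Its 75th percentile was 214 and its slope 0.87, against 459 and 0.94 on the ZT12 ALDH-low array. Over the 4 arrays dimness, slope and that mark thus went with position and not with time. The ZT12 ALDH-high array was closest not to its own fraction but to the ZT0 ALDH-low array, which shares its position (r = 0.983 over 27238 probes, median absolute difference 0.23). The ZT0 ALDH-high array was closest to the ZT12 ALDH-low array (r = 0.966, 0.39). Between the ZT12 and ZT0 ALDH-high arrays themselves r was 0.850 and the median absolute difference 1.01. The titles of both ZT12 samples end in a 2 that the ZT0 titles lack and that the sources used here do not explain. The labels were used as given. Whether fraction labels were crossed at 1 of the times was not tested, and the meaning of every difference below depends on them. The part of position, slide or sorting in the differences was not tested either.

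The difference also depended on level and on scaling. Its median was 1.01 in the dimmest eighth of genes and -0.26 in the brightest, with the lowest value, -0.60, in the 7th of 8 level bins. Of 8 E1A spike-in probes above background on both arrays, 7 differed by 1.15 to 1.49 and the other by 4.84, and scaling to the spike-ins lowered every difference by 1.40. The sign of any difference between 0 and 1.40 therefore turns negative under that scaling. Median scaling lowered the median of all genes by 0.11, quantile normalization by 0.12, and background correction with normexp followed by quantile normalization by 0.24. The distance of a list's median from the median of all genes, given below where the sign depends on this, does not change when all differences shift together.

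**Figure D1:**
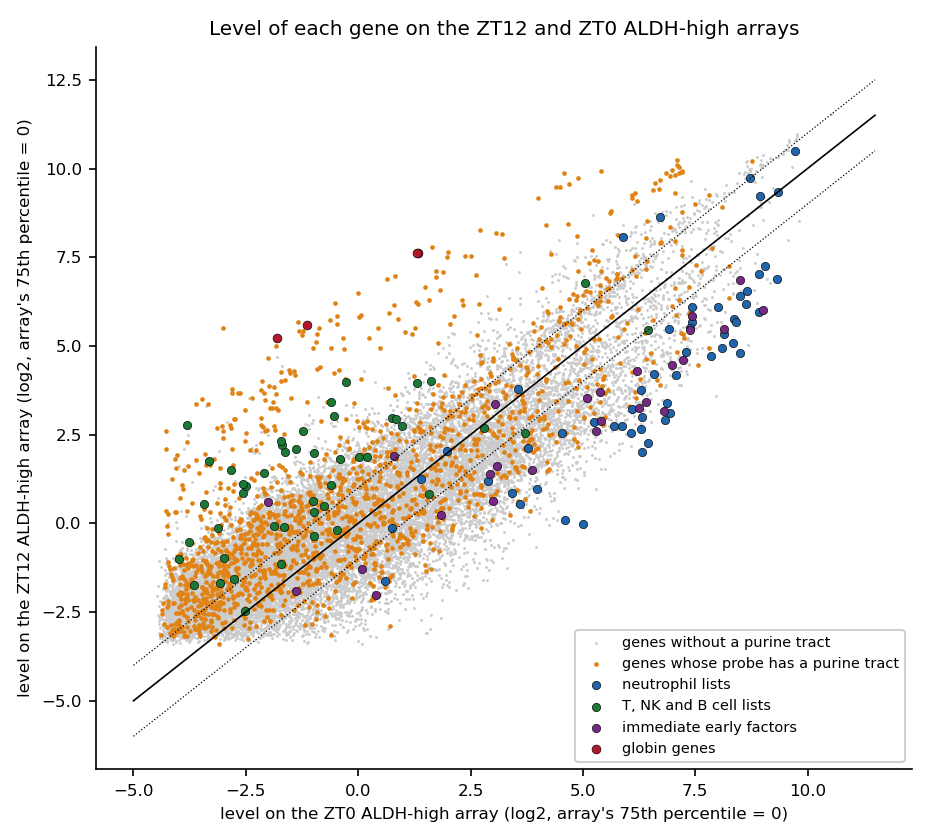
Level of each of the 20345 genes above background on both ALDH-high arrays, ZT12 on the vertical axis and ZT0 on the horizontal axis (both log2 relative to the array's 75th percentile); the solid line marks equal levels and the dotted lines a 2-fold difference. Most neutrophil and immediate early genes lie under the lower dotted line, most T, NK and B cell genes and the globins above the upper one, and probes with a purine tract form much of the far upper edge.

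Genes of neutrophils were the lowest at ZT12. Of 27 neutrophil granule genes, all with a difference, 20 were at least 2-fold lower at ZT12 and 0 higher, with a median of -2.44. Of 27 neutrophil surface and signalling genes, 24 were at least 2-fold lower and 3 higher (Csf3r, Itgam and Cd300lf), with a median of -2.56. Ly6g, which encodes the surface antigen that defines mouse neutrophils, had a level of -0.030 on the ZT12 array and 4.99 on the ZT0 array. That difference of -5.02, a 32.5-fold one, was the lowest of all measured genes. Cxcr2, the chemokine receptor that guides neutrophils, had 2.92 at ZT12 and 6.84 at ZT0.

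Granule genes followed the same direction. Cd177, a neutrophil surface glycoprotein, had 0.091 at ZT12 and 4.61 at ZT0 (-4.52). Mmp8, the neutrophil collagenase, had 3.11 at ZT12 and 6.95 at ZT0 (-3.83), and Ltf, the iron-binding lactoferrin of secondary granules, 4.81 at ZT12 and 8.50 at ZT0 (-3.70). Not all members shared this. S100a9, a subunit of calprotectin, had 10.5 at ZT12 and 9.71 at ZT0, a difference of 0.79 that is negative with spike-in scaling. Summed over the granule list, the signal was 3646 times the array's 75th percentile at ZT12 and 7250.2 times at ZT0; for the surface list the sums were 2015 at ZT12 and 3242 at ZT0. In RNA from a sorted population, fewer cells of a type and less RNA per cell cannot be told apart.

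Other genes at the low end came with these. Rankings of single genes, here and below, leave out predicted, clone, accession and locus names. That leaves 13199 of the 20345 measured genes. After Ly6g the lowest were Steap4, a metalloreductase (-4.60), Ggt1, a glutathione-cleaving enzyme (-4.52), Cd177, Itgb2l, an integrin chain (-4.46), and Lrg1, a secreted glycoprotein (3.59 at ZT12 and 7.96 at ZT0, -4.37). Next were 4 Mas-related receptors, Mrgpra6, Mrgpra2a, Mrgpra2b and Mrgpra7 (-4.30 to -4.12), of which Mrgpra2a and Mrgpra2b are near-identical copies and uncertain as separate genes. Dfna5, which encodes gasdermin E, gave -4.30 but its other probe had the opposite sign. Rnf144a, Tmem154, Celsr3 and Mtus1 completed the lowest 15, at -4.27 to -4.18. Among genes seen at ZT0 alone, Scrg1 was at least 44.8-fold lower at ZT12, the NOD-like receptor Nlrp12 at least 28.6-fold and the sphingosine receptor S1pr4 at least 17.1-fold. Leading bounds below these were Krt86, Slco4c1, Chrm3, Pdzd3 and Capns2, at least 14.4-fold to 10.6-fold lower. Bounds set the ZT0 level against the lowest level that counted as above background on the ZT12 array, or the dim probe's own level where that was higher. For genes seen at ZT12 alone the arrays swap roles. That lowest level was -3.40 on the ZT12 array and -4.59 on the ZT0 array, which favours upward bounds. All 1267 genes seen at ZT12 alone had a bound of at least 2-fold higher. Of the 2329 seen at ZT0 alone, 349 had one of at least 2-fold lower.

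Immediate early genes, which cells switch on within minutes of a stimulus and which tissue dissociation is also known to induce, were lower at ZT12. Of 26 measured, 22 were at least 2-fold lower and 2 higher (Myc and Nr4a2), with a median of -1.92. Egr1, a zinc finger factor, had 3.15 at ZT12 and 6.80 at ZT0 (-3.65). Junb, an AP-1 subunit, had 6.01 at ZT12 and 9.02 at ZT0 (-3.01), and Btg2, an antiproliferative factor, 3.24 at ZT12 and 6.24 at ZT0 (-3.0). Myc ran the other way, with 0.59 at ZT12 and -2.01 at ZT0 (2.60), although its other probe had the opposite sign.

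Most genes that brake the same pathways were lower too. Among 22 MAPK and ZFP36 feedback genes 14 were at least 2-fold lower and 6 higher (median -1.35). Zfp36, which destabilises cytokine mRNAs, had 3.91 at ZT12 and 7.19 at ZT0 (-3.28), Gadd45a, a growth arrest gene, 1.60 at ZT12 and 4.67 at ZT0 (-3.07), and Dusp1, the phosphatase of MAP kinases, 4.96 at ZT12 and 7.78 at ZT0 (-2.82). Rgs1, a G protein regulator, was higher instead (2.76 at ZT12 and 0.54 at ZT0, 2.22).

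Inflammatory signalling showed a similar direction. NF-kappaB and feedback genes had a median of -1.15, with 11 of 22 at least 2-fold lower and 2 higher (Tnip3 and Cd83). Nfkbiz, a nuclear cofactor of NF-kappaB, had 1.38 at ZT12 and 5.04 at ZT0 (-3.66), Tnfaip2 3.04 at ZT12 and 5.75 at ZT0 (-2.71), and Nfkbid 2.39 at ZT12 and 4.79 at ZT0 (-2.40). Interferon response genes had a median of -1.04, with 15 of 27 lower and 2 higher (Ifi44 and Cxcl9). The antiviral synthetase genes Oas3 (-0.83 at ZT12 and 2.61 at ZT0) and Oas2 (3.39 at ZT12 and 6.25 at ZT0) and the RNA sensor Ddx58 (1.42 at ZT12 and 3.85 at ZT0) had the lowest differences, at -3.44, -2.85 and -2.43. Cxcl9, a chemokine induced by interferon gamma, was higher at ZT12 (0.026 at ZT12 and -2.41 at ZT0, 2.43).

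Cytokines and chemokines were split, with 7 of 27 at least 2-fold higher, 11 lower and a median of 0.032. The monocyte attractants Ccl7 (2.79 at ZT12 and 0.16 at ZT0) and Ccl2 (4.98 at ZT12 and 2.50 at ZT0) were higher by 2.63 and 2.49, and Cxcl16 by 1.96. Osm, the neutrophil-made cytokine oncostatin M, had 4.21 at ZT12 and 7.32 at ZT0 (-3.10). The neutrophil lists were lower on the same array as the immediate early, NF-kappaB and interferon lists, and the part of neutrophil content in these values was not tested.

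**Figure D2:**
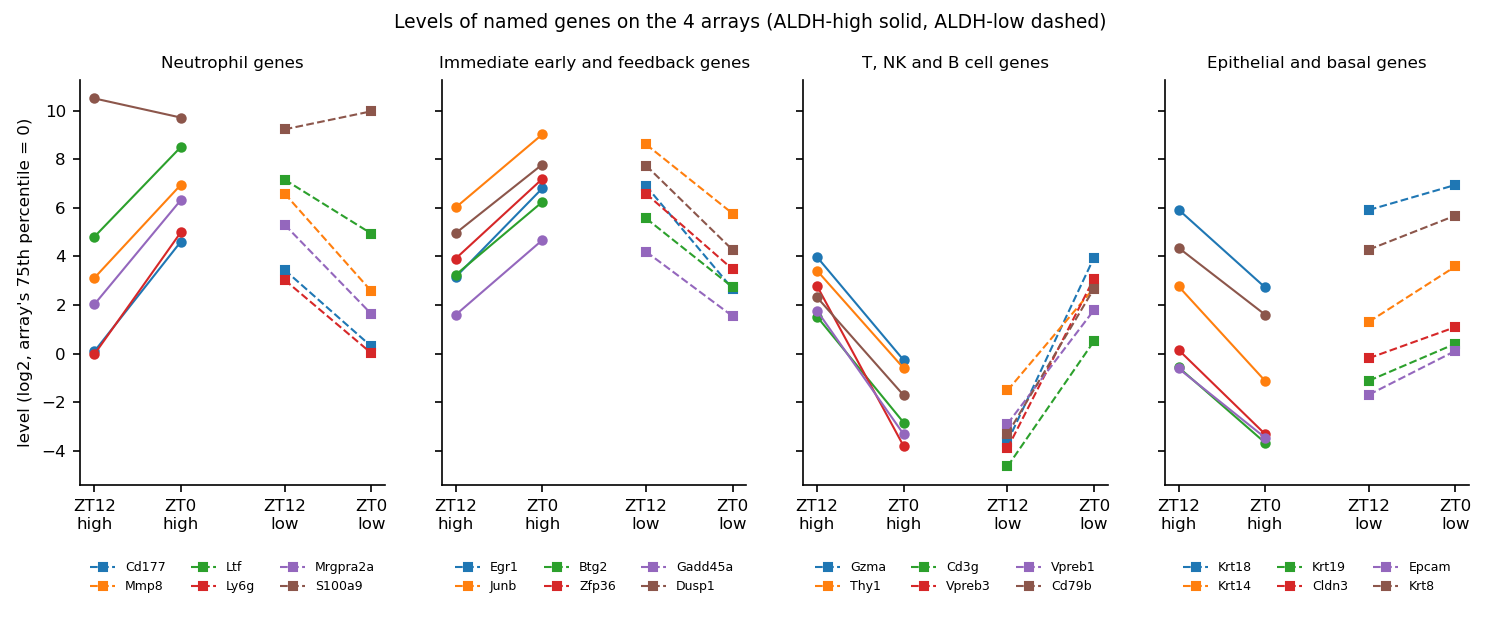
Levels of named genes on each array (log2 relative to the array's 75th percentile), ALDH-high in circles with solid lines and ALDH-low in squares with dashed lines, ZT12 left of ZT0; 1 array per point. The lines of most neutrophil and immediate early genes climb toward ZT0 in ALDH-high and fall in ALDH-low, and those of lymphocyte genes do the reverse.

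Lymphocyte genes were the highest list at ZT12. Of 30 T and NK cell genes with a difference, 25 were at least 2-fold higher and 1, Cd3d, lower (median 2.68), and 5 more were seen at ZT12 alone. Gzma, a granzyme of cytotoxic cells, had 3.97 at ZT12 and -0.27 at ZT0 (4.24, an 18.9-fold difference). Cd3e, part of the T cell receptor complex, had 1.80 at ZT12 and -0.40 at ZT0, and Ncr1, the NK cell receptor NKp46, was at least 9.08-fold higher. Cd3g (4.35) and Thy1 (4.01) were also high, but their probes carry a purine tract, described below. Cd3d, another chain of the same complex, had 2.54 at ZT12 and 3.71 at ZT0 (-1.16).

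Genes of B cells were higher too. The median of the 17 measured was 1.77, with 14 past 2-fold higher and 0 lower, and 4 more were seen at ZT12 alone. Vpreb3 and Vpreb1, which encode surrogate light chain proteins of B cell precursors, had 2.78 and 1.76 at ZT12 against -3.81 and -3.32 at ZT0. Cd79b, a signalling chain of the B cell receptor, had 2.31 at ZT12 and -1.71 at ZT0 (4.03). Cd79a was at least 3.83-fold higher. Xbp1, a plasma cell factor that many secretory cells use, was lower (5.45 at ZT12 and 6.44 at ZT0, -0.99).

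Globins led the red cell genes. Hba-a1, an alpha globin, had 7.62 at ZT12 and 1.33 at ZT0 (6.29), and Hbb-bt, a beta globin, 5.59 at ZT12 and -1.15 at ZT0 (6.74). Hba-a2 and Hbb-b2 gave 6.31 and 7.03, and Hbb-b1 was at least 127-fold higher; probes of near-identical globin copies may share RNA, so single copies are uncertain. Alas2, the haem synthesis enzyme of red cells, was at least 35.1-fold higher. The list of 15 measured genes had a median of 0.64, which is 0.30 above that of all genes and negative with spike-in scaling, with 5 at least 2-fold higher and 2 lower. Nfe2, a factor of red cells and megakaryocytes that myeloid cells also use, had 1.91 at ZT12 and 5.59 at ZT0 (-3.68), and Dmtn gave -1.27.

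Other blood and stromal lists were mixed. Macrophage and monocyte genes had a median of 1.87, with 17 of 27 at least 2-fold higher and 4 lower. The complement genes C1qb, C1qc and C1qa were higher by 3.13, 3.04 and 3.02, while Csf1r, which defines the lineage, had 6.14 at ZT12 and 6.56 at ZT0, and the monocyte antigen gene Ly6c2 had 4.46 at ZT12 and 7.35 at ZT0 (-2.89). Antigen presentation and dendritic cell genes had a median of 1.34, which is 0.99 above that of all genes but turns to -0.065 with spike-in scaling. Cd74, the invariant chain, had 6.93 at ZT12 and 4.63 at ZT0, and the peptide loader gene H2-DMb1 5.01 at ZT12 and 2.55 at ZT0. Platelet genes stood at -0.11, with Pf4 higher (3.25) and Clec1b and F5 lower (-2.90 and -2.69).

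Mast cell and basophil genes had a median of 0.71, negative with spike-in scaling. Of 14 measured 2 were at least 2-fold higher (Cd200r3 and Cpa3, 1.55 and 1.09) and 3 lower; of these, the histidine decarboxylase gene Hdc, had 5.68 at ZT12 and 8.42 at ZT0 and is also in the neutrophil list. Endothelial, fibroblast and fat or muscle lists had medians of 0.24, -0.086 and 0.37, against 0.35 for all genes; the positive ones are negative with spike-in scaling. Flt1 (2.12), Kdr (1.90) and Nos3 (1.78) led the endothelial genes, although Pecam1 had -1.66 at ZT12 and -1.46 at ZT0, and Cdh5 was dim on both arrays. Col1a1 and Pdgfra, which mark fibroblasts, differed by -0.26 and 0.0080, and Adipoq and Ckm were dim on both.

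Genes of the tumour epithelium were higher at ZT12. The 18 epithelial and luminal genes had a median of 1.62, with 12 past 2-fold higher and 2 lower, and of 19 basal and squamous genes 14 were higher and 0 lower (median 1.5). Krt18 and Krt8, the keratins of simple epithelia, had 5.93 and 4.36 at ZT12 against 2.73 and 1.61 at ZT0. Krt14, a basal keratin, had 2.77 at ZT12 and -1.12 at ZT0 (3.89), and Epcam, the epithelial adhesion molecule, -0.61 at ZT12 and -3.45 at ZT0 (2.84). Cldn3 and Krt19 gave 3.46 and 3.10.

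Exceptions and blood cell signal stood beside this. Cd24a, which leukocytes also express, was lower at ZT12 (-2.77). Ptprc, the leukocyte antigen CD45, had 4.29 at ZT12 and 7.19 at ZT0 (-2.90), with 5 of 6 probes of that sign. Mesenchymal genes had a median of 0.69, 0.35 above that of all genes, with Tgfb3 (2.29) and Axl (2.28) among the higher and the repressor gene Zeb1 lowest (-2.64).

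Genes tied to ALDH activity did not move as a group. Of 24 stem and ALDH genes 9 were at least 2-fold higher and 5 lower, all 5 of them ALDH genes, and the median of 0.66 was 0.31 above that of all genes. Aldh1a1, the isoform most often linked to the ALDEFLUOR reaction, had -1.90 at ZT12 and -2.38 at ZT0. The mitochondrial Aldh2 had 3.31 at ZT12 and 5.90 at ZT0 (-2.59), Aldh3a1 -0.24 at ZT12 and 0.67 at ZT0 (-0.91), and Aldh1l1 -0.70 at ZT12 and -2.90 at ZT0 (2.2). Aldh3b1 gave -2.57, Aldh4a1 -1.90, Aldh3a2 -1.89 and Aldh16a1 -1.14. Sox9 (2.89) and the receptor gene Lgr5 (2.26), both used as stem cell marks, were higher.

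Wnt ligands and receptors had a median of 1.27 and Wnt target genes of 1.1, 0.92 and 0.76 above that of all genes; both medians are negative with spike-in scaling (-0.13 and -0.30). Fzd7, a Wnt receptor, had 2.39 at ZT12 and -0.89 at ZT0 (3.29), and Fzd2 -0.97 at ZT12 and -3.53 at ZT0 (2.56). The ligand Wnt10a, whose probe has a purine tract, was at least 7.75-fold higher, Wnt6 was higher by 2.29 and Wnt5b lower (-1.94). Ccnd1, the cyclin D1 target gene, had 2.57 at ZT12 and 0.17 at ZT0 (2.40), whereas Ctnnb1, which encodes beta-catenin itself, had 2.36 at ZT12 and 4.00 at ZT0 (-1.65). In the Notch and Hedgehog list, at a median of 1.0 (0.65 above all genes), Smo (1.99) and Gli3 (1.83) were higher and Notch2 lower (-2.74); Notch1 gave 4.00 with a tract probe.

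YAP and TEAD genes had a median of 1.41, 1.06 above that of all genes. The target Ankrd1 had -1.67 at ZT12 and -4.10 at ZT0 (2.42). Lats2, the kinase that restrains YAP, had -0.54 at ZT12 and 2.06 at ZT0 (-2.59).

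**Figure D3:**
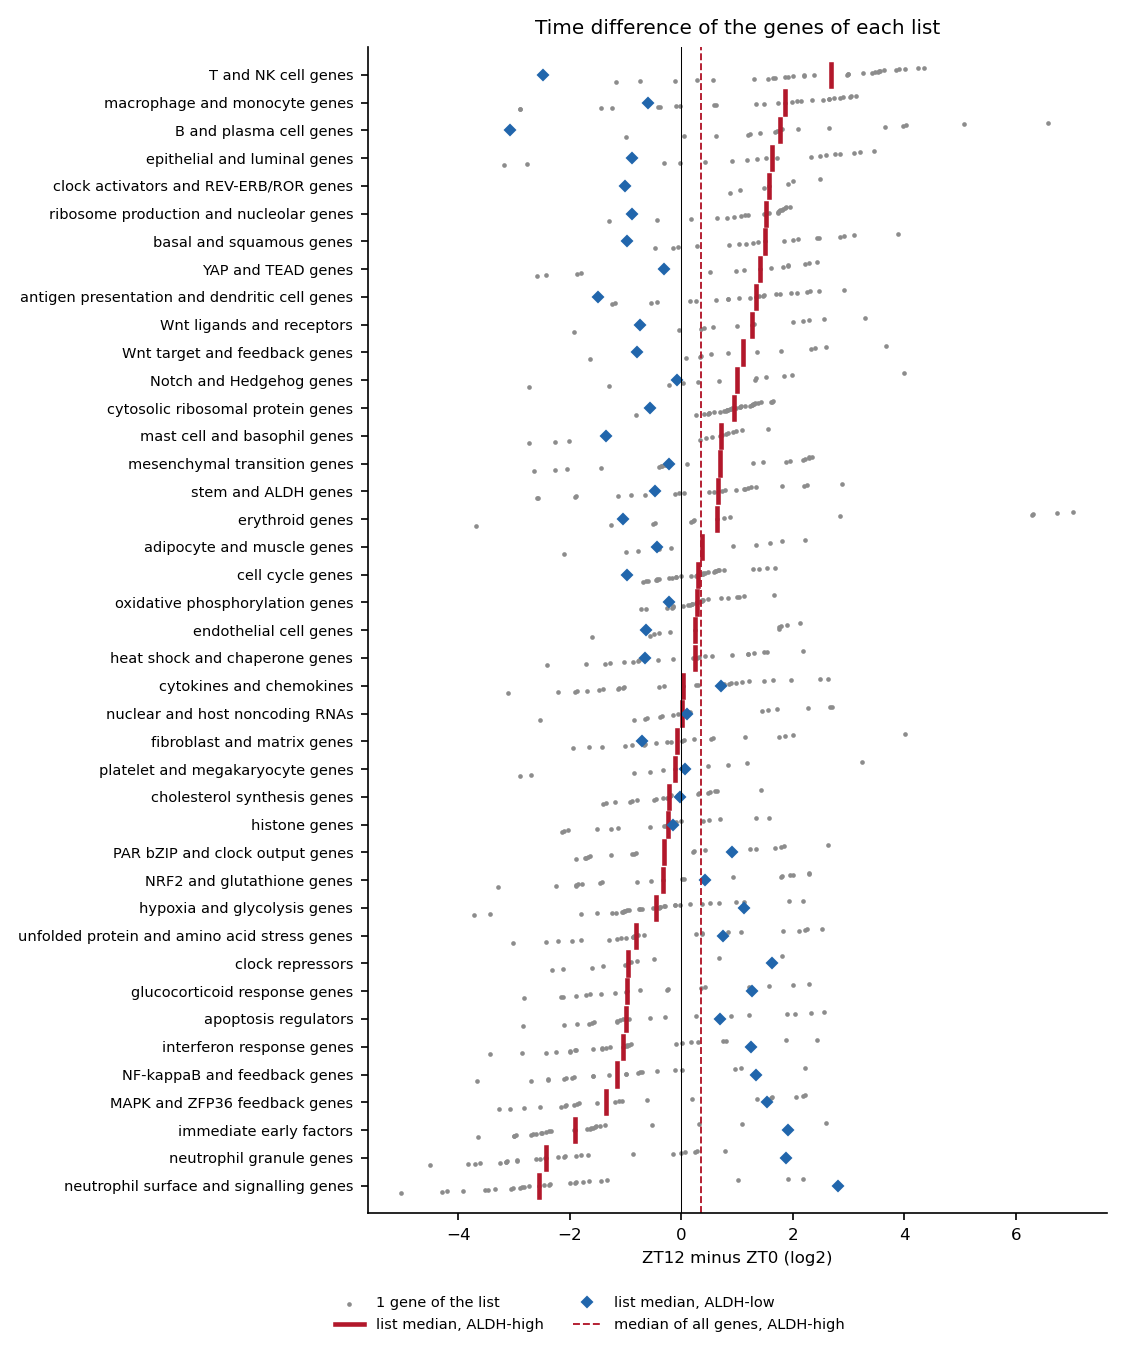
ZT12 minus ZT0 (log2) of each gene of the 41 lists in ALDH-high cells (grey points), with the list median in ALDH-high (red bar), the list median in ALDH-low (blue diamond) and the median of all genes in ALDH-high (dashed line, 0.35). Medians run from 2.68 for T and NK cell genes to -2.56 for neutrophil surface genes, and those between 0 and 1.40 turn negative with spike-in scaling.

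Clock genes did not share a direction. All 7 measured genes of the activator and REV-ERB/ROR list were higher at ZT12, Arntl and Clock only without spike-in scaling, 6 of them at least 2-fold, with a median of 1.57. Rora, a receptor that activates Arntl, had 1.60 at ZT12 and -0.88 at ZT0 (2.48), and Nr1d2, which encodes REV-ERB beta, -0.75 at ZT12 and -2.75 at ZT0 (2.0). Arntl2, the BMAL1 paralogue, had 0.99 at ZT12 and -0.92 at ZT0 (1.91). Arntl itself was dim but measured (-2.09 at ZT12 and -2.96 at ZT0, 0.87), Clock gave 1.06 with 2 of 3 probes of that sign, and Rorb gave 1.57. Nr1d1 and Npas2 were dim on both arrays.

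Repressors were mostly lower. Of 11 measured 5 were at least 2-fold lower and 1, Per3, higher, with a median of -0.96. Per1 had 2.73 at ZT12 and 4.85 at ZT0 (-2.12), Per2 -0.26 at ZT12 and 1.14 at ZT0 (-1.40), and Cry1 -2.06 at ZT12 and -1.15 at ZT0 (-0.91). Csnk1e, a PER kinase, had 0.76 at ZT12 and 2.37 at ZT0 (-1.61). Per3 went the other way, with 0.050 at ZT12 and -1.75 at ZT0 (1.80). Bhlhe40, Ciart and Csnk1d gave -0.96, -0.80 (the other Ciart probe had the opposite sign) and -0.49, and Btrc 0.68. Bhlhe41 was seen at ZT12 alone, at -3.18, near the lowest level above background there (-3.40). Its bound of at least 2.65-fold higher rests mostly on the lower limit of the ZT0 array (-4.59). Cry2 cannot be given a direction: its brightest probe gave -1.02, the mean of its 3 probes 0.43, and other normalizations 1.08 to 1.42.

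Output genes divided evenly, 6 of 18 at least 2-fold higher and 6 lower. The PAR bZIP factor genes Tef, Hlf and Dbp were higher by 1.84, 1.79 and 1.35, with Dbp at 1.04 on the ZT12 array and -0.31 on the ZT0 array; the Dbp difference is -0.054 with spike-in scaling. Nfil3, the repressor that opposes them, had 4.80 at ZT12 and 6.48 at ZT0 (-1.67). Usp2, a deubiquitinase gene, gave -1.73, Nampt, the NAD salvage enzyme gene, -1.27, and the cell cycle inhibitor gene Cdkn1a -1.64, while Tspan4 (2.63), Lpin1 (1.68) and Wee1 (1.24) were higher. Herpud1, Cirbp and Ccrn4l lay between -0.88 and -0.82, and Hsf1, Rbm3 and Fkbp5 between 0.20 and 0.42.

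Genes induced by glucocorticoids, whose blood level in mice peaks around lights off, had a median of -0.98, with 8 of 19 at least 2-fold lower and 4 higher. Tsc22d3, which encodes the glucocorticoid-induced leucine zipper, had 3.11 at ZT12 and 5.01 at ZT0 (-1.90), Sgk1 3.38 at ZT12 and 5.10 at ZT0 (-1.72), and Gadd45g 5.18 at ZT12 and 7.35 at ZT0 (-2.17). Fkbp5, a classical target, had 1.44 at ZT12 and 1.02 at ZT0, and the metallothionein gene Mt2 5.38 at ZT12 and 3.09 at ZT0 (2.29). Per1 and Dusp1 belong to this list too.

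**Figure D4:**
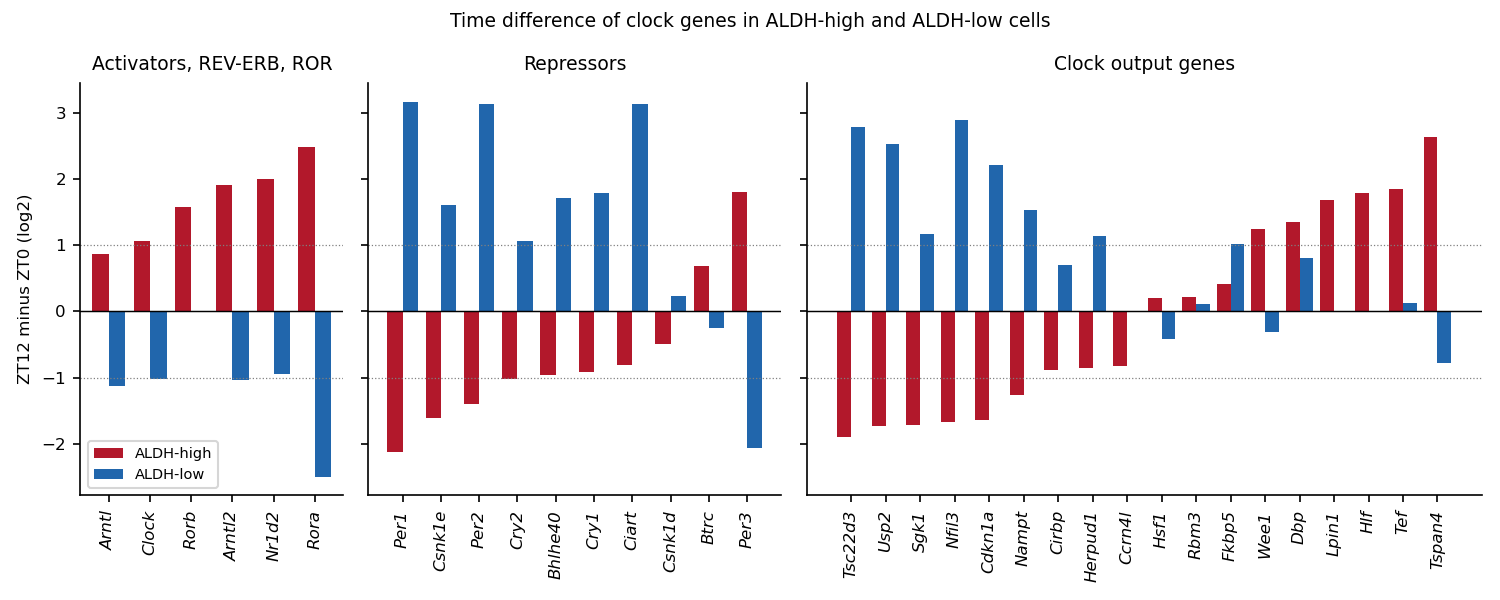
ZT12 minus ZT0 (log2, vertical axis) of the clock genes shown, all above background, ALDH-high in red and ALDH-low in blue, 1 array on each side of every difference; dotted lines mark 2-fold. In ALDH-high the bars of activators and REV-ERB/ROR genes all point up and those of repressors mostly down, from -2.12 for Per1 to 1.80 for Per3. The ALDH-low bars mostly point the opposite way. In ALDH-high, bars between 0 and 1.40 turn negative with spike-in scaling.

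Promoters of 4 repressors are shown as examples of the clock elements near the start. Per1, Cry1 and Ciart hold an E-box and had negative differences, under 2-fold for Cry1 and Ciart, and Per3 holds a D-box. Bhlhe41, not shown, also holds an E-box and was seen at ZT12 alone, too near background to be given a direction. The E-box genes of the output list, given below, differed in both directions. Sequences are the 250 bases before the start in RefSeq (build GRCm38.p6), with the E-box CACGTG and the D-box TTATGTAA in capitals, both strands searched and a window free to hold more than 1 motif. The windows searched run on to 50 bases after the start.
Per1, chr11:69098699-69098948, plus strand: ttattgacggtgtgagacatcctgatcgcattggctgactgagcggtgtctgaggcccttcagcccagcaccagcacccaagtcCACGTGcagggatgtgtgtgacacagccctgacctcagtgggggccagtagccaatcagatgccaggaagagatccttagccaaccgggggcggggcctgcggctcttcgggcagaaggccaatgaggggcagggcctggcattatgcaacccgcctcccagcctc
Cry1, chr10:85185055-85185304, minus strand: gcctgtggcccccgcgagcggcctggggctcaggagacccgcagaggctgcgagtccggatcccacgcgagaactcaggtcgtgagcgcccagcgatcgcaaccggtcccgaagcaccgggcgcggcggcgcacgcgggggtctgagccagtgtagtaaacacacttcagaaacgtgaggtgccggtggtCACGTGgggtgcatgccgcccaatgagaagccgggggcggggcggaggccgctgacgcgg
Ciart, chr3:95882229-95882478, minus strand: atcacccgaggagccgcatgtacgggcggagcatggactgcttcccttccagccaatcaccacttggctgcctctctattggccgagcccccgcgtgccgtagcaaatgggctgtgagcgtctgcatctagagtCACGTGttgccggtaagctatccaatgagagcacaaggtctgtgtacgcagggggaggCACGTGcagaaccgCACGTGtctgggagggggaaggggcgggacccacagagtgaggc
Per3, chr4:151044666-151044915, minus strand: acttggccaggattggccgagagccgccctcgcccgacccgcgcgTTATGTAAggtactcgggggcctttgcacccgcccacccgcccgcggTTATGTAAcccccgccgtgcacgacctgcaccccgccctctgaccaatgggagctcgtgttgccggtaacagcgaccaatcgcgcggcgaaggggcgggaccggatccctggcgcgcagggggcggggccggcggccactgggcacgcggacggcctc

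An E-box stood in the promoters of 4 of the 8 repressor genes that the RefSeq table holds (Per1, Cry1, Ciart and Bhlhe41), and in 7.15% of 32851 promoters of the same length. It was found in 4 of 15 output genes (Tef, Tspan4, Fkbp5 and Sgk1), which differed by 1.84, 2.63, 0.42 and -1.72. The activator and REV-ERB/ROR list had 0 of 8 genes with one, and the immediate early list, which is not a clock list, 4 of 21. A gene can have more than 1 promoter, so these counts of genes and the share of promoters are not in the same unit. A D-box stood in the promoter of Per3 and in 0.938% of all promoters. A match describes the letters in the window and nothing more.

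Growth and metabolism lists ranged in median from 1.53 to -0.45. Ribosome production and nucleolar genes had a median of 1.53, with 14 of 20 at least 2-fold higher and 1, Polr1a, lower. Gar1, a protein of pseudouridylation guides, had 2.42 at ZT12 and 0.55 at ZT0 (1.88), and Polr1b, an RNA polymerase I subunit, -1.51 at ZT12 and -3.38 at ZT0 (1.87). Cytosolic ribosomal protein genes had a median of 0.94, 0.60 above that of all genes, with 15 of 32 higher and 0 lower; Rpl3 gave 1.64, Rpl32 1.61 and Rps9 -0.81. Their median is negative with spike-in scaling. Cell cycle genes (0.29) and oxidative phosphorylation genes (0.28) lay near the median of all genes. Of 31 cell cycle genes 4 were at least 2-fold higher (12.9%, against 31.8% of all genes) and 0 lower. The replication helicase genes Mcm2, Mcm3 and Mcm6 were highest, at 1.69, 1.54 and 1.40, and Aurka was lowest (-0.70).

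Stress and nutrient lists leaned lower or had no common direction. Of 32 hypoxia and glycolysis genes 10 were at least 2-fold lower and 3 higher (median -0.45). Slc2a3, a glucose transporter, had 2.07 at ZT12 and 5.80 at ZT0 (-3.73), and Pfkfb4, a regulator of glycolysis, 2.62 at ZT12 and 6.06 at ZT0 (-3.44). Unfolded protein and amino acid stress genes had a median of -0.81, with the chaperone gene Dnajb9 at 1.40 at ZT12 and 4.42 at ZT0 (-3.01) and the serine synthesis gene Phgdh at 3.67 at ZT12 and 1.14 at ZT0 (2.53). NRF2 and glutathione genes stood at -0.33, with G6pdx, of the pentose phosphate pathway, at -3.29. Apoptosis regulators stood at -0.99, with the BH3 gene Bid at 0.047 at ZT12 and 2.89 at ZT0 (-2.84) and Bcl2 at 0.91 at ZT12 and -1.65 at ZT0 (2.56).

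The remaining lists were near the median of all genes or below it. Heat shock genes had a median of 0.24, with Hspb8 higher (2.18) and the co-chaperone gene Dnaja1 lower (4.71 at ZT12 and 7.13 at ZT0, -2.42). Cholesterol synthesis genes stood at -0.22 and histone genes at -0.24. Of noncoding RNAs, Rmrp (2.71), Meg3 (2.67) and H19 (2.27) were higher and Neat1 lower (0.93 at ZT12 and 3.48 at ZT0, -2.55), around a median of 0.016. Among genes often used as references, Actb, Gapdh and Hprt differed by 0.39, 0.16 and -0.070, Ppia by 1.06 and Tbp by -1.52; Gapdh had 7 probes, 6 of them of the opposite sign to the brightest.

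At the high end, most of the genes shared a feature of the probe sequence. Of the 15 highest in the ranking of 13199 genes, 9 had a probe with a purine tract. A tract is here a stretch of 10 bases that are all A or G with at least 3 of each. Those were Tmem52b, Adcy6, Itga1, Zfp160, Cldn24, Mrgprg, Klra1, Kcna6 and Syn3, at 8.51 to 6.30. The other 6 were 4 globin genes, Vpreb3 and the transcript Platr17 (6.69). Tmem52b, of unsettled function, had 5.50 at ZT12 and -3.01 at ZT0, the largest difference of all. None of the 15 lowest genes in that ranking had such a tract. Of the 8 highest bounds 5 did (Ssty1, Olfr1107, Cdh24, Slc22a12 and Ly6g6e), and Hbb-b1, Fgfr4 and Zfp111 did not.

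Stretches of 30 bases of the 60-base probes are shown. Capitals mark the longest run of A and G as far as it lies in the stretch. The stretches are given because probes of the same gene with and without a long run gave different answers. Such probes can lie far apart, as their positions show, and may differ in more than the run. Positions and strands are those the files give for the whole probe in build mm9, and a position wider than the probe is printed as given.
Tmem52b, chr6:129462932-129462991, plus strand: GGAGAGGAGAttgatctattgccgagaaaa
Itga1, probe used, chr13:115821387-115825525, minus strand: ttGGGAGAGAGAGAtcaatgccttgtgtga
Itga1, another probe, chr13:115772427-115772486, minus strand: tcaagccacGGAAAttaagattcagccagg
Syn3, probe used, chr10:85586568-85586627, minus strand: tgcataccAAAGAGAGAGAAAAGGAGAGAG
Syn3, another probe, chr10:85533313-85533372, minus strand: cccagcacAGGGGAGAcagagacaggagga
Cd300lf, probe used, chr11:114977796-114977855, minus strand: tctgttttAAGGAGGAAGAGAGAGAGAGAG
Cd300lf, another probe, chr11:114978372-114978431, minus strand: cttgggtcAGGAGcctacttatggcaatac

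Itga1, a collagen-binding integrin chain, differed by 7.0 at the first probe and by 1.71 at the second, and its other 3 probes gave 0.60 to 1.95. Syn3, a synapsin, differed by 6.30 and 1.67. Cd300lf, an inhibitory receptor of myeloid cells in the neutrophil list, was higher at ZT12 by the brighter probe (8.06 at ZT12 and 5.89 at ZT0, 2.18) and lower by the other (1.33 at ZT12 and 4.17 at ZT0, -2.84). For comparison, 7 probes of genes described above without a tract are shown. The lists themselves are not free of tract probes: the neutrophil granule, T and NK cell, B cell and immediate early lists hold 3 each.
Ly6g, chr15:74989023-74989082, plus strand: tactgttgcAAGGAAGAcctctgcaatgca
Lrg1, chr17:56259257-56259316, minus strand: ctcattccctcagccAGGAAtgctattctc
Junb, chr8:87500843-87500902, minus strand: tcgtgtctAAAGtctattttaagatgtgtt
Gzma, chr13:113884035-113884094, minus strand: gtctgatcacaaatAAAAtcaacttgaatg
Hba-a1, chr11:32184427-32184486, plus strand: ggtctttgaataaagcctgagtAGGAAGAA
Krt18, chr15:101862341-101862400, plus strand: caccagagttctgaggcactgaggcAGAGA
Per1, chr11:68923364-68923423, plus strand: gtgttctcAGctctaccctctaccaatgac

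Across the array, a tract went with a higher difference. Probes with one made up 8.15% of the 20345 genes, but 44.0% of the 252 genes higher by 3 to 5 and 94 of the 110 genes (85.5%) higher by more than 5. They made up 2.09% of the 239 genes lower by at least 3. Of 1658 genes with a tract 50% were at least 2-fold higher (median 1.0), and of 18687 genes without one 30.2% (median 0.29). By length of the longest run, the median difference was 0.22 in 10025 genes with 5 or fewer bases and 2.71 in 222 genes with 16 or more. Among ERCC control probes whose tract status was known, 4 had a tract. Of these, 2 were above background on the ZT12 array and not on the ZT0 array, and 2 were dim on both. The first 2 were also above background on the ZT0 ALDH-low array. ERCC-00022_66, without a tract, was above background on both ALDH-high arrays and higher by 3.2 at ZT12. So was ERCC-00148_99, without a tract, which differed by 0.033, and ERCC-00012_90, which differed by 2.21. Tract status was not known for ERCC-00012_90, some other ERCC probes and the E1A spike-in probes, including the one that differed by 4.84. Why tract probes differ was not tested.

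**Figure D5:**
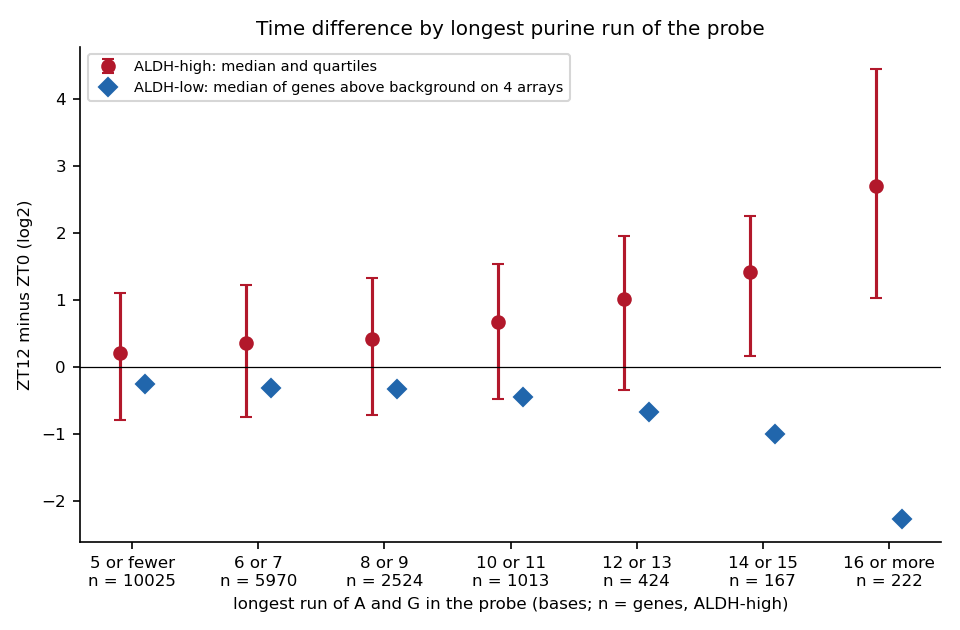
ZT12 minus ZT0 (log2, vertical axis) by the longest run of A and G in the probe (bases, horizontal axis; n is the number of genes in ALDH-high): red circles and bars give the median and quartiles in ALDH-high, blue diamonds the median in ALDH-low over genes above background on 4 arrays. The ALDH-high median lies between 0.22 and 2.71 and is highest for the longest runs, and the ALDH-low median is lowest there (-2.27); the ALDH-high medians below 1.40 are negative with spike-in scaling.

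Leaving out tract probes moved some lists and not others. Without them 27 T and NK cell genes had a median of 2.2 and 16 B cell genes one of 1.93, the neutrophil granule median was -2.44 as before and the surface median -2.73. The mesenchymal median was 0.10, against 0.69 with tract probes, and that of the clock output genes -0.82, against -0.31. The highest named genes without a tract were then the globins, Platr17, Vpreb3, Olfr1500 (6.13) and Snora74a (5.96). Of 1086 olfactory receptor names, genes that tumours are not known for, 144 were above background on both arrays; their median was 0.84 (negative with spike-in scaling), with 63 past 2-fold higher and 5 lower, and 3 of the 144 had a tract.

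Where a gene had several probes they often differed. Of 5845 genes with more than 1 probe above background 74.6% had all probes of the same sign, and 81.9% of the 3093 past 2-fold. Of the named genes, 10 had probes of both signs: Cd300lf, Ciart, Clock, Cry2, Dfna5, Gapdh, Myc, Ptprc, Rbm3 and Sdha. The median SD between probes of a gene was 0.38, against a median SD of 0.038 to 0.046 between replicate spots of the same probe on an array, neither of which measures the spread between tumours.

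The time difference in ALDH-low cells, ZT12 ALDH-low minus ZT0 ALDH-low, shares no array with that in ALDH-high cells but has the same slides. Position ran the other way, 1_2 at ZT12 and 1_1 at ZT0 in ALDH-low, so the fraction and the order of positions cannot be told apart. There, of 20614 genes, 17.5% were higher by 2-fold or more and 28.7% lower, and the median was -0.34. Over 19291 genes measured on all 4 arrays, 89.7% had opposite signs in the ALDH-high and ALDH-low differences, and the correlation across genes, which are not independent replicates, was -0.87 (Spearman -0.88). Past 2-fold, 4027 genes were higher in ALDH-high and lower in ALDH-low, and 3085 had the reverse; 5 were higher in both and 21 lower in both. The difference between the fractions has no replicate and was not tested, and it rests on the fraction labels as given.

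Neutrophil surface genes had a median of -2.56 in ALDH-high and 2.81 in ALDH-low, T and NK cell genes 2.68 and -2.49, and immediate early genes -1.92 and 1.92. Ly6g differed by -5.02 in ALDH-high and 3.01 in ALDH-low, Gzma by 4.24 and -7.58, and Egr1 by -3.65 and 4.23. Per1 and Per2 differed by -2.12 and -1.40 in ALDH-high and by 3.16 and 3.13 in ALDH-low, and Rora by 2.48 and -2.49. Of the 207 named genes measured on all 4 arrays, 146 were past 2-fold in opposite directions. Many of them were named for a large difference in ALDH-high, which raises that count by choice. Over all 19291 genes, 4027 were past 2-fold higher in ALDH-high and lower in ALDH-low, and 3085 the reverse.

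Genes that went the same way in both fractions were few. Among those higher in both were Krt6a, a stress keratin (1.29 in ALDH-high and 3.06 in ALDH-low), Gpnmb (1.93 and 1.27), Nars2 (1.06 and 2.18), and, with a tract probe, Tg. Lower in both were Hspa1b (-1.38 in ALDH-high and -1.43 in ALDH-low), an inducible heat shock gene, its near-identical and hence uncertain copy Hspa1a (-1.29 in ALDH-high and -1.27 in ALDH-low), and Igfbp5 (-1.34 and -1.47), Adra2b (-2.10 and -1.33) and Golt1a (-2.15 and -1.12). Dbp (1.35 and 0.81) and Tef (1.84 and 0.13) also had the same sign in both, the smaller value under 2-fold. The genes of this paragraph other than Dbp and Tef were picked for this pattern after their values were seen.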

How the data were processed

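RNA of each sorted fraction was measured on single-colour Agilent arrays, 1 array a group. The deposited values are linear spot intensity: the authors' scanner software, Agilent Feature Extraction 10.7.1.1 per the file headers (9.5.1.1 per the submitters' processing notes), subtracted background to give the processed signal, and the headers name build mm9. Here the processed signal was put on the log2 scale, control probes and outlier spots were left out, spots of a probe were averaged, and each array's 75th percentile was subtracted. A gene name took its brightest probe, and a difference needed that probe well above background on both arrays. The authors' deposited series table, on a log2 scale and quantile normalized as its values showed, served as an alternative. The 59305 non-control spots per array set no sampling depth, and 0 spots were saturated.

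Named genes are the 15 highest and lowest differences, the 8 highest bounds each way, the 3 genes furthest in the direction of each list's median plus the 1 furthest the other way, all clock genes, and 11 fixed genes. Predicted, clone, accession and locus names were left out of these rankings, which left 13199 genes with a difference. Others were chosen after their values were seen. The comparison and all gene lists were chosen with earlier results of these data known. The purine tract was defined after the data were seen. Symbols and promoters came from RefSeq (GRCm38.p6), whose table held 13080 of 13843 accessions. Python 3.11.15, pandas 2.3.3, numpy 2.4.6 and limma 3.58.1 in R 4.3.3 were used, and the fold calculation was checked on simulated data. Groups have 1 array, so there is no test and no p-value. Some genes are not reported here.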

Additional observations from a re-analysis of the deposited data

Results flagged for a closer look

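Medians of 10 gene lists pointed one way in ALDH-high cells and the other way in ALDH-low cells, each by at least 2-fold. None of these differences between the fractions was tested, since each rests on 1 array per group. Array position also ran opposite ways in the fractions, and the values rest on the fraction labels as given. Neutrophil granule genes had a median ZT12 minus ZT0 difference of -2.44 in ALDH-high and 1.88 in ALDH-low, and neutrophil surface genes of -2.56 and 2.81. T and NK cell genes had 2.68 in ALDH-high and -2.49 in ALDH-low, B cell genes 1.77 and -3.07, and antigen presentation genes 1.34 and -1.49, the last turning negative in ALDH-high with spike-in scaling. The list of clock activators and REV-ERB/ROR genes had 1.57 in ALDH-high and -1.01 in ALDH-low. In ALDH-high, Arntl (0.87) and Clock (1.06) lay below that median. Immediate early genes had -1.92 in ALDH-high and 1.92 in ALDH-low, MAPK feedback genes -1.35 and 1.54, NF-kappaB genes -1.15 and 1.34, and interferon genes -1.04 and 1.25.

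Control probes outside the comparison also gave signal. ERCC-00018_67 had a level of 1.82 and ERCC-00113_271 one of 1.34 on the ZT12 ALDH-high array. Both were well above background there, and neither was on the ZT0 ALDH-high array. They were also well above background, at -1.80 and -1.36, on the ZT0 ALDH-low array, which shares position 1_1 with the ZT12 ALDH-high array. On the ZT12 ALDH-low array only ERCC-00113_271 was, at -4.66. Both probes carry a purine tract.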

How the results depend on the processing

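With 1 array per group, no replicate could be left out, and depth does not apply: signal over background and the number of arrays set the limit. No paired analysis was possible because each group has 1 array and the groups share no replicate number. Against 6476 genes at least 2-fold higher, there were 3412 with normexp and quantile normalization, 954 with spike-in scaling, 16817 without the background filter and 1846 at 4-fold. Against 4094 genes at least 2-fold lower, there were 10462 with spike-in scaling and 1330 at 4-fold. The correlation with the ALDH-low difference was -0.75 without the filter, against -0.87. Spike-in scaling turned the sign of 16 of 41 list medians and 18 of 213 named genes. Of these, the ones past 2-fold before were the medians of antigen presentation genes (-0.065), Wnt ligands and receptors (-0.13) and Wnt target genes (-0.30), and the differences of Atp5o (-0.37), Clock (-0.34), Ppia (-0.34), Cpa3 (-0.31), Ndufa9 (-0.28), Wee1 (-0.16), Dbp (-0.054) and the difference of Mcm6 (-0.0055); the uniform shift of that scaling accounts for these by construction. Cry2 was 1.36 with quantile normalization, 1.08 with normexp, 1.42 in the authors' deposited table and 0.43 as the mean of its probes. Cd300lf was -0.33 as the mean of its probes and -2.84 without tract probes. The other settings turned the sign of 21 of 369 values of list medians, all 21 under 2-fold before, and of 23 of 1895 values of named genes, 17 of them under 2-fold before. Over all settings, 24 list medians and 99 named gene values lost 2-fold without turning, and 27 and 40 passed it.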
